A study of Mus musculus with 3 samples.

Results

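The cranial myogenic genes described here are 10 genes of the muscle lineage of the head, read in bulk RNA-Seq counts of the embryonic mouse maxillary process. They are the myogenic regulatory factors *Myf5*, *Myf6*, *Myod1* and *Myog*, the head muscle factors *Tcf21* and *Msc*, and the muscle structure and synapse genes *Des*, *Actc1*, *Chrna1* and *Myh3*. The members were chosen by gene name in GENCODE M21, and all 10 were found among the 55401 genes of the count tables.

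The 3 libraries analysed here are of 1 genotype and stage, Wnt1cre; Rosa26Dlx2/- at E10.5, and are called OE (*Dlx2*-overexpressing) replicates 1, 2 and 3. In these embryos Cre recombinase under *wnt1* control opens a *Rosa26* allele, driven by the CAG promoter, that encodes a Flag-tagged *Dlx2*, so the transgene is switched on in cells of the neural crest and their descendants. Muscle cells of the head come from mesoderm, which *wnt1cre* does not mark, while the connective tissue around them comes from neural crest. The labels give 3 separate RNA samples of dissected maxillary prominences, but not whether a sample came from 1 embryo or several. With no wild-type library in hand, values are levels in OE tissue, and each comparison is between libraries of 1 group.

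Counts on genes ranged from 35351031 to 40057435 per library. *Dlx2* itself had 9089, 7150 and 6890 counts in replicates 1, 2 and 3, which cannot show the overexpression without a control. All 13 markers of maxillary mesenchyme, *Prrx1*, *Msx1*, *Barx1* and *Pdgfra* among them, had more than 3 counts in every library. The libraries stand apart in other tissues. The summed level of 8 neuron markers was 236, 13.1 and 30.6 counts per 1000000 (CPM) in replicates 1, 2 and 3, that of 6 eye and forebrain markers was 13.9, 120 and 117, and that of 7 pigment cell markers was 6.81, 38.4 and 163. *Xist* had 25915, 11 and 21 counts and 4 genes of the Y chromosome together had 0, 5197 and 4106, so replicate 1 carries the counts of female tissue. Replicate 3 held more of GC-rich transcripts. The 1710 tested genes with the highest GC content had a median log2 offset of 0.46 in replicate 3 against the other libraries, and the 1711 with the lowest had -0.44.

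The muscles of the jaw, face and eye form from cranial mesoderm that enters the pharyngeal arches and surrounds the eye. *Tcf21* and *Msc* mark and specify these progenitors upstream of the myogenic regulatory factors, and both can act as repressors. *Myf5* and *Myod1* then commit cells to the muscle fate, *Myog* drives their terminal differentiation, and *Myf6* acts in commitment and in later differentiation. All 6 are basic helix-loop-helix (bHLH) proteins, which bind E-boxes as dimers with widely expressed E proteins, while Id proteins hold E proteins away from DNA. Differentiating cells then make intermediate filaments, sarcomeres and the acetylcholine receptors of the neuromuscular synapse.

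The upstream sequences of 4 members that differed plainly between libraries are given to show the letters before a start site of each gene. They come from RefSeq on GRCm38.p6, which had an entry for 7 of the 10 members (*Des*, *Myog*, *Chrna1*, *Actc1*, *Tcf21*, *Myf5* and *Myh3*). Each run ends at the base before the first annotated exon or the RefSeq start site. *Myf5* lies at chr10:107486135-107486384 on the minus strand, *Actc1* at chr2:114052888-114053125 on the minus strand, *Myog* at chr1:134289754-134289988 on the plus strand and *Des* at chr1:75360042-75360291 on the plus strand. The *Actc1* stretch lies before the first exon of the full-length transcript but within an intron of a second annotated transcript that starts farther upstream, so it is inside the annotated gene. Capitals mark matches on either strand to the E-box CANNTG, the TATA box TATAAA, the MEF2 consensus or the CArG box.
Myf5: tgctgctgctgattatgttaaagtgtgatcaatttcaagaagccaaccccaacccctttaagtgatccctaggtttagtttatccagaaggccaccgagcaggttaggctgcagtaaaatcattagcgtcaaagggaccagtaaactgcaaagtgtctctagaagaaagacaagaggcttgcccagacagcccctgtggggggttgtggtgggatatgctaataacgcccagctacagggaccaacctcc
Actc1: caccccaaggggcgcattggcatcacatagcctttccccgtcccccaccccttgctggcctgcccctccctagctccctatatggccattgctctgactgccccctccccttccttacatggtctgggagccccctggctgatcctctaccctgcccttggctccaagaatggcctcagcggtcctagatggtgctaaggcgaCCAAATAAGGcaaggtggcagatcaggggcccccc
Myog: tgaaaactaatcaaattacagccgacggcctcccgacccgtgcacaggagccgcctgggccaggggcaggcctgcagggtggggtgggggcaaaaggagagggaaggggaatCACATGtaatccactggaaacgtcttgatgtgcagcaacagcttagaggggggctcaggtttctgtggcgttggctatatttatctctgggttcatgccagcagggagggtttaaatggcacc
Des: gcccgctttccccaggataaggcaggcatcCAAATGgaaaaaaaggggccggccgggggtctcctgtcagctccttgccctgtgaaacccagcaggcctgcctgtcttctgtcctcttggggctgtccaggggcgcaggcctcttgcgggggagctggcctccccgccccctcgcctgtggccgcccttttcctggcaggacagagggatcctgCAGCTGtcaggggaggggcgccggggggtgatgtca
The *Myog* stretch of 235 bases holds 1 E-box (2 in the 250 bases before its RefSeq start) and the *Des* stretch 2, the *Actc1* stretch holds 1 CArG box, and the *Myf5* stretch holds no match. Over all 32851 promoters of the table, taken as the 250 bases before the start, 66.2% hold an E-box, 12.4% a TATA box, 2.92% the MEF2 consensus and 1.47% a CArG box. E-boxes are thus common in any promoter, and a match marks letters only.

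Since several members belong to gene families, the share of sequence they hold in common bears on how far a count belongs to its own gene. Among windows of 75 bases of annotated transcripts, *Myf5*, *Myf6*, *Myod1*, *Myog*, *Tcf21* and *Actc1* shared none with another gene. The longest run of identical coding bases between any pair of the 4 myogenic regulatory factors was 26 bases, shared by *Myf5* (coding bases 253 to 278) and *Myod1* (coding bases 331 to 356), in the stretch that encodes the basic DNA-binding region.
Myf5 and Myod1: cgcaaggccgccaccatgcgcgagcg
*Myod1* and *Myog* shared a run of 21 bases and the other pairs runs of 11 to 14. *Actc1* shared coding runs of 29 bases with *Acta1*, 23 with *Acta2*, 38 with *Actg2*, and 32 and 26 with the cytoplasmic actins *Actb* and *Actg1*. *Chrna1* shared 51 of 4312 windows (1.18%) with other genes, *Furin*, *Ipo7* and *Tra2b* among them. *Myh3* shared 1.84% of its windows with *Myh1*, *Myh2*, *Myh8* and *Myh13*, skeletal myosin genes of the same cluster. *Msc* shared 18.0% of its windows with *Gm9947*, an antisense gene that covers 21.2% of its exonic bases and had 5, 0 and 0 counts in replicates 1, 2 and 3. *Des* shared 3.94% with the antisense gene *Gm15179*, which had 3, 9 and 2 counts. The kit used does not mark strand, so reads of these pairs could not be told apart where they overlap.

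The 10 members together made up 0.00430% of the counts on genes, averaged over libraries. Of these members, 8 had more than 3 counts in every library, and the exceptions were *Myf6* and *Myh3*. Among all 28442 genes with at least 1 count, 62.4% had more than 3 in every library. Levels between genes were compared as transcripts per 1000000 (TPM), which divides each count by the exonic length. The order by mean TPM was *Des* (26.1 ± 11.1, SD, n = 3), *Actc1* (5.34 ± 6.25), *Myf5* (2.96 ± 2.49), *Msc* (2.65 ± 2.69), *Myod1* (1.94 ± 0.378), *Tcf21* (1.73 ± 0.909), *Myog* (1.42 ± 0.770), *Chrna1* (0.118 ± 0.0622), *Myf6* (0.104 ± 0.0899) and *Myh3* (0.0944 ± 0.0708). *Des* stood above the rest, its lowest library (18.9 TPM) being above the highest of *Actc1* (12.5 TPM). From *Actc1* down to *Myog* the neighbours in this order did not differ beyond their spread over libraries, and neither did *Chrna1*, *Myf6* and *Myh3*. Several of these means rest on 1 library. Without replicate 1, the mean of *Actc1* was 1.03 CPM in place of 2.51, that of *Msc* 0.937 in place of 1.94 and that of *Myf5* 1.25 in place of 1.90. Without replicate 3, *Des* was at 22.0 CPM in place of 33.6, *Myog* at 0.450 in place of 0.742 and *Myh3* at 0.0980 in place of 0.205. All libraries of *Myog* (lowest 0.777 TPM) lay above all of *Chrna1* (highest 0.184 TPM). The median over the 10 members was 1.83 TPM, against 1.57 TPM over all 28442 genes with at least 1 count. Over the 7 members that averaged 10 counts or more it was 2.65 TPM, against 10.9 TPM over all 17115 such genes.

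**Figure D1:**
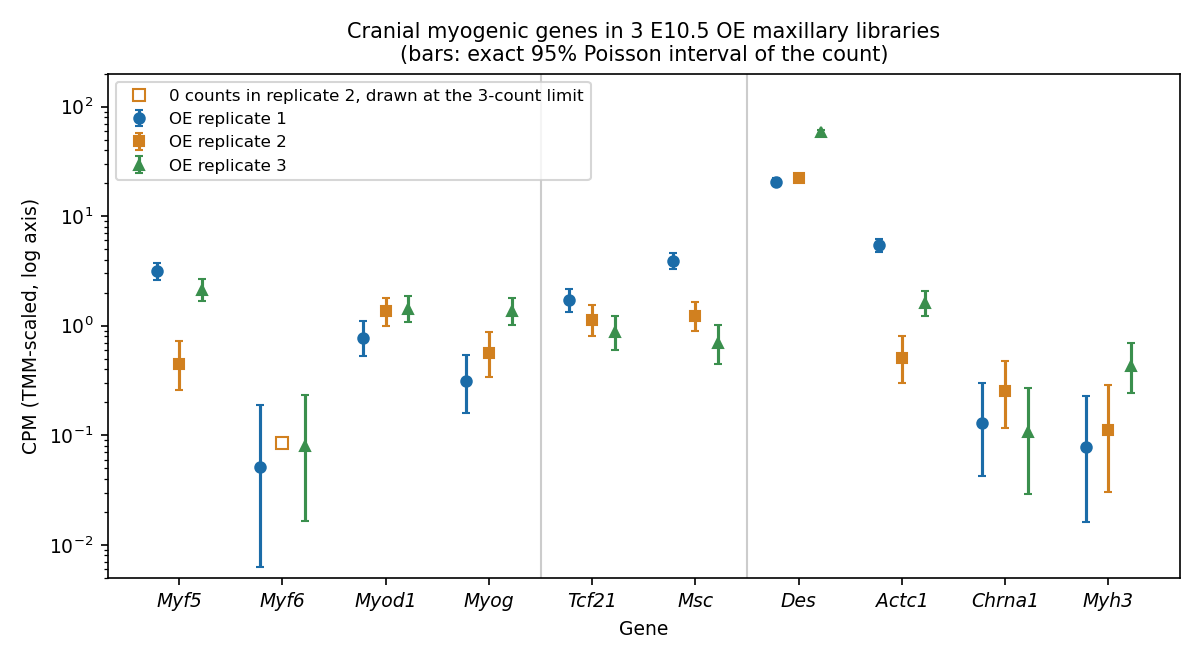
Level of each of the 10 genes in CPM (TMM-scaled, log axis) in OE replicates 1, 2 and 3, with the exact 95% Poisson interval of the count as bar. *Myf5*, *Msc* and *Actc1* are highest in replicate 1, *Des*, *Myog* and *Myh3* in replicate 3, and *Myf6* with 0 counts in replicate 2 is drawn at the limit of 3 counts, 0.0843 CPM.

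*Myf5* (ENSMUSG00000000435, chromosome 10 of mm10, 107482908 to 107486134, minus strand) is the first of the myogenic regulatory factors to appear in the embryo. It had 121 counts in replicate 1, 16 in replicate 2 and 80 in replicate 3, which corresponds to 3.14, 0.450 and 2.12 CPM. Replicate 2 was low and the other libraries were high, and its Poisson interval (0.257 to 0.730 CPM) did not reach that of replicate 3 (1.68 to 2.64 CPM). The ratio between the highest and the lowest library was 6.97, and the mean was 1.90 ± 1.36 CPM (SD, n = 3). In bulk tissue, fewer cells of a type and less RNA per cell cannot be told apart, here and for every gene below.

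*Myod1* (ENSMUSG00000009471, chromosome 7, 46376474 to 46379099, plus strand), the second commitment factor, did not share this pattern. It had 30, 48 and 54 counts in replicates 1, 2 and 3, or 0.777, 1.35 and 1.43 CPM. Replicates 2 and 3 were alike and replicate 1 was lower, and the Poisson intervals of all libraries overlapped. Its mean was 1.19 ± 0.357 CPM (SD, n = 3), the smallest relative spread of the 10 members (30.1%).

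*Myog* (ENSMUSG00000026459, chromosome 1, 134289989 to 134292548, plus strand), the differentiation factor, had 12, 20 and 51 counts, or 0.311, 0.562 and 1.35 CPM. Replicate 3 was the highest, and its interval (1.01 to 1.78 CPM) lay above those of replicate 1 (0.161 to 0.543 CPM) and replicate 2 (0.343 to 0.868 CPM). The ratio between the highest and the lowest library was 4.35. *Myf6* (ENSMUSG00000035923, chromosome 10, 107492853 to 107494737, minus strand), whose gene ends 6718 bases upstream of *Myf5*, had 2, 0 and 3 counts. It was therefore at or under the limit of 3 counts in every library, no fold was computed, and a level up to 0.0843 CPM in replicate 2 would not have been detectable at this depth.

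The make-up of these counts within a library does not depend on the scaling factors of the libraries, but it can move with GC content, since *Myf5* has 41.6% GC and *Myod1* 58.9%. Genes of like GC to *Myf5* had a median log2 offset of 0.28 in replicate 1 and -0.39 in replicate 3, and those like *Myod1* had -0.33 and 0.46. Of the counts on the 4 myogenic regulatory factors, *Myf5* took 73.3% (95% Clopper-Pearson interval 65.9% to 79.9%) of 165 in replicate 1, 19.0% (11.3% to 29.1%) of 84 in replicate 2 and 42.6% (35.4% to 49.96%) of 188 in replicate 3. None of these 3 intervals overlapped. *Myod1* took 18.2% (12.6% to 24.9%), 57.1% (45.9% to 67.9%) and 28.7% (22.4% to 35.8%), so that it was the leading factor in replicate 2. *Myog* took 7.27% (3.81% to 12.4%), 23.8% (15.2% to 34.3%) and 27.1% (20.9% to 34.1%). Set against *Myf5* alone, *Myog* made up 9.02% (4.75% to 15.2%) of the counts of the pair in replicate 1, 55.6% (38.1% to 72.1%) in replicate 2 and 38.9% (30.5% to 47.8%) in replicate 3. Replicate 1 thus had more *Myf5* for each *Myog* count than both other libraries, whose intervals overlapped. These intervals cover counting error only, and the part of GC content in the shares was not tested.

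**Figure D2:**
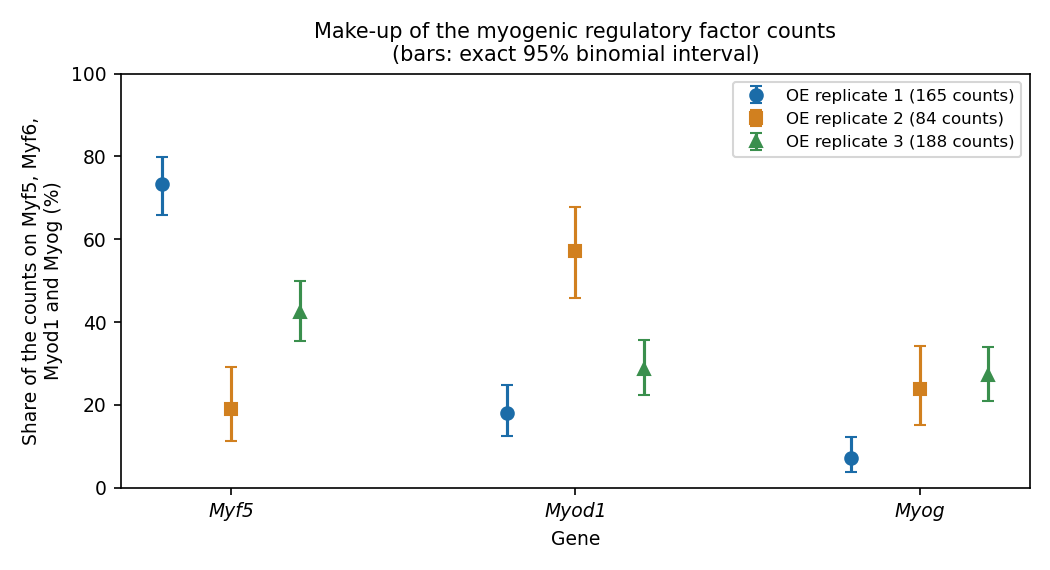
Share of *Myf5*, *Myod1* and *Myog* in the counts on *Myf5*, *Myf6*, *Myod1* and *Myog* (%, y axis) in each OE library, with exact 95% binomial intervals as bars. *Myf5* holds 73.3% in replicate 1, *Myod1* holds 57.1% in replicate 2, and replicate 3 has the flattest make-up, from 27.1% for *Myog* to 42.6% for *Myf5*.

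The head muscle factors *Tcf21* and *Msc* were both highest in replicate 1 and lowest in replicate 3. *Msc* (ENSMUSG00000025930, chromosome 1, 14753346 to 14755992, minus strand), also known as MyoR, had 150, 44 and 26 counts in replicates 1, 2 and 3, or 3.89, 1.24 and 0.690 CPM. The interval of replicate 1 (3.29 to 4.56 CPM) lay above the others, which overlapped, and the ratio between the highest and the lowest library was 5.63. *Tcf21* (ENSMUSG00000045680, chromosome 10, 22817281 to 22820174, minus strand), also known as capsulin, had 66, 40 and 33 counts, or 1.71, 1.12 and 0.876 CPM. Its libraries spanned a ratio of 1.95, and only the intervals of replicates 1 and 3 did not overlap. Within the pair, *Msc* took 69.4% (62.8% to 75.5%) of the counts in replicate 1, 52.4% (41.2% to 63.4%) in replicate 2 and 44.1% (31.2% to 57.6%) in replicate 3, so the lead of *Msc* over *Tcf21* was seen in replicate 1 and not beyond counting error in the others.

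*Des* (ENSMUSG00000026208, chromosome 1, 75360329 to 75368579, plus strand) encodes desmin, the intermediate filament protein of muscle cells, which cardiac and smooth muscle also make. It was by far the most abundant member, with 794, 789 and 2192 counts in replicates 1, 2 and 3, or 20.6, 22.2 and 58.2 CPM. Replicates 1 and 2 were alike, with overlapping intervals, and replicate 3 was high, for a ratio of 2.83 between the extremes. *Actc1* (ENSMUSG00000068614, chromosome 2, 114047282 to 114053548, minus strand) encodes the cardiac alpha-actin, the sarcomeric actin of the embryonic heart and of the first skeletal muscle cells. It had 209, 18 and 61 counts, or 5.42, 0.506 and 1.62 CPM, and was high in replicate 1, low in replicate 2 and between in replicate 3, with no overlap of intervals. Its ratio of 10.7 between the extremes was the largest of the tested members. Of the counts on *Actc1* and *Des* together, *Actc1* took 20.8% (18.4% to 23.5%) in replicate 1, 2.23% (1.33% to 3.50%) in replicate 2 and 2.71% (2.08% to 3.46%) in replicate 3. These muscle structure genes were thus far from parallel.

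*Actc1* was also read against its closest relatives. *Acta2*, the smooth muscle actin, had 347, 70 and 204 counts, also highest in replicate 1 and lowest in replicate 2, while *Acta1*, the adult skeletal actin, had 5, 8 and 14. *Actc1* made up 37.3% (33.2% to 41.4%) of the counts on these 3 actins in replicate 1, 18.8% (11.5% to 28.0%) in replicate 2 and 21.9% (17.2% to 27.2%) in replicate 3.

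*Chrna1* (ENSMUSG00000027107, chromosome 2, 73563215 to 73580338, minus strand), the alpha subunit of the muscle acetylcholine receptor, had 5, 9 and 4 counts, or 0.130, 0.253 and 0.106 CPM, with overlapping intervals in all libraries. *Myh3* (ENSMUSG00000020908, chromosome 11, 67078300 to 67102291, plus strand), the embryonic myosin heavy chain, had 3, 4 and 16 counts, or 0.0777, 0.112 and 0.425 CPM. Replicate 3 was the highest, with an interval (0.243 to 0.690 CPM) above that of replicate 1 (0.0160 to 0.227 CPM) and overlapping that of replicate 2. Of the counts on 6 skeletal myosin heavy chain genes (*Myh1*, *Myh2*, *Myh3*, *Myh4*, *Myh8* and *Myh13*), *Myh3* took 3 of 50 in replicate 1 (6.00%, interval 1.25% to 16.5%), 4 of 30 in replicate 2 (13.3%, 3.76% to 30.7%) and 16 of 34 in replicate 3 (47.1%, 29.8% to 64.9%). The perinatal *Myh8* had 30, 21 and 10 counts.

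Each gene's 3 counts were set against counting noise alone (chi-square test with 2 degrees of freedom over the 17115 genes averaging 10 counts or more, Benjamini-Hochberg adjustment). Such a test compares libraries, and its p-values do not bear on the genotype. All 7 members tested were beyond counting noise, with adjusted p from 0.0211 for *Myod1* and 0.00489 for *Tcf21* down to 3.99e-218 for *Des*. This share is close to that of all genes tested, of which 81.5% were beyond counting noise, so it says nothing particular about the members. *Myf6*, *Chrna1* and *Myh3* were under the minimum count. When every gene with at least 1 count was tested, 8 of 10 members were beyond counting noise, with *Myh3* as the addition, where 53.4% of all genes were. Of the 7 members, 4 were highest in replicate 1 (*Myf5*, *Tcf21*, *Msc*, *Actc1*), 3 in replicate 3 (*Myod1*, *Myog*, *Des*) and 0 in replicate 2, where the shares over all genes tested were 33.8%, 36.4% and 11.3% in replicates 1, 3 and 2. *Myf5* and *Actc1* were lowest in replicate 2, which held for 9.57% of all genes, 3 members (*Myod1*, *Myog*, *Des*) were lowest in replicate 1 (32.8% of all genes), and 2 (*Tcf21*, *Msc*) were lowest in replicate 3 (39.1% of all genes). Without replicate 3, 4 members stayed beyond counting noise (*Myf5*, *Myod1*, *Msc* and *Actc1*), while 48.8% of all genes did, and *Myog* (adjusted p = 0.167), *Tcf21* (adjusted p = 0.0679) and *Des* (adjusted p = 0.217) were within it. Without replicate 1, *Myod1* (adjusted p = 0.793) and *Tcf21* (adjusted p = 0.339) were within counting noise.

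The size of the differences was read beside that of all genes and of genes with like counts. On log2(CPM + 1), a scale that understates changes of low genes, 4 of 7 members were past 2-fold in 1 library against the mean of the other libraries, where 12.3% of all genes tested were. *Actc1* was higher in replicate 1 by 1.69 and lower in replicate 2 by a log2 difference of -1.44. *Msc* was higher in replicate 1 by 1.33, *Myf5* was lower in replicate 2 at -1.31, and *Des* was higher in replicate 3 by 1.40. By library and direction, 2 members were higher in replicate 1 (2.07% of all genes tested), 2 lower in replicate 2 (0.473%) and 1 higher in replicate 3 (6.03%). None was lower in replicate 1 (1.88%), higher in replicate 2 (0.304%) or lower in replicate 3 (5.21%). Without replicate 1 the number past 2-fold was 2 of 8, where 6.52% of all genes were. The median ratio between the highest and the lowest library was 4.35 over the 7 members and 1.69 over all genes tested. Counting error widens this ratio in genes of low counts, so each member was also set beside genes of like mean count. Among the 1712 genes with the mean counts of *Myf5*, *Myod1*, *Tcf21* and *Msc* (40.3 to 93.7) the median ratio was 1.94, where these members had 6.97, 1.84, 1.95 and 5.63, and 14.4% were past 2-fold. *Myod1* and *Tcf21* were thus near the median of genes like them, and *Myf5* and *Msc* above it. For genes with counts like *Myog*, *Actc1* and *Des* the median ratio was 2.25, 1.77 and 1.505, where these had 4.35, 10.7 and 2.83. The median biological coefficient of variation, the relative spread between replicates beyond counting error, was 0.594 over the members and 0.339 over all genes tested, and without replicate 3 these medians were 0.361 and 0.209. This spread is also wider in genes of low counts. Among genes with counts like *Myf5*, *Myod1*, *Tcf21* and *Msc* its median was 0.427, where these members had 0.653, 0.428, 0.433 and 0.646. For genes with counts like *Myog*, *Actc1* and *Des* it was 0.464, 0.379 and 0.267, where these had 0.594, 0.752 and 0.434.

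Transcript length and GC content moved with the libraries, so each member was also read against genes of like length and GC. In replicate 3, genes like *Des* had a median offset of 0.29 on the log2 scale, and *Des* (1.40) lay 1.11 above it. *Myog* in replicate 3 was at 0.72, where genes like it were at 0.46, a difference of 0.26. *Myod1* in replicate 3 was at 0.25, where genes like it were at 0.50. The log2(CPM + 1) scale shrinks offsets of low genes, and *Myog* and *Myod1* averaged 0.742 and 1.19 CPM. Their offsets are thus not on a par with medians over genes of all levels. How far length and GC content account for them was not tested. *Msc*, a GC-rich transcript (58.2%), was at -0.97 in replicate 3, 1.47 below genes like it. In replicate 2, *Myf5* was 1.40 and *Actc1* 1.29 below genes like them, and in replicate 1 *Actc1* was 2.02 and *Msc* 1.68 above. The number of members past 2-fold stayed at 4 of 7 after these medians were subtracted, where 6.95% of all genes tested were past it.

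**Figure D3:**
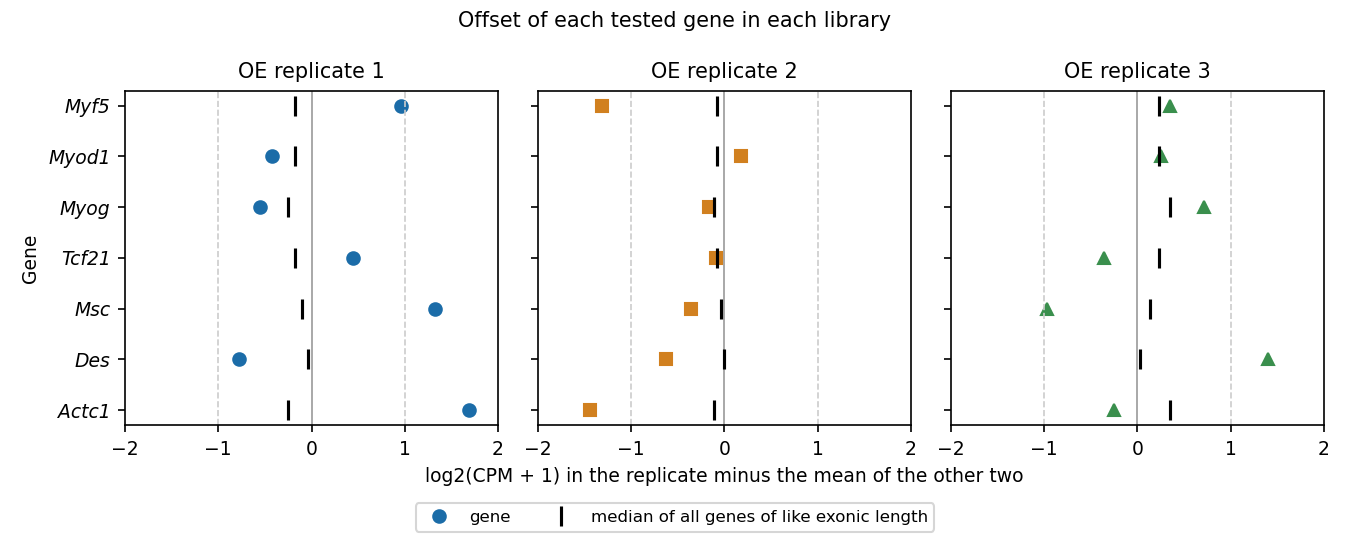
Offset of the 7 tested genes in each OE library, as log2(CPM + 1) in that library minus the mean of the other two (x axis). Black ticks give the median of all tested genes of like exonic length, and dashed lines mark 2-fold. *Actc1* and *Msc* lie right of the line in replicate 1 (1.69 and 1.33), *Myf5* and *Actc1* left of it in replicate 2 (-1.31 and -1.44), and *Des* right of it in replicate 3 (1.40).

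The remaining muscle pathway was read over 81 further genes in 7 lists. Of these, 61 averaged 10 counts or more and 54 of them were beyond counting noise, of which 21 were highest in replicate 1, 5 in replicate 2 and 28 in replicate 3. Over all genes tested 81.5% were beyond counting noise, with 33.8%, 11.3% and 36.4% also highest in replicates 1, 2 and 3. Without replicate 3, 36 of 58 list genes and 48.8% of all genes were beyond counting noise. In that setting 7 of 7 cranial mesoderm factors, 8 of 9 genes of the *Pax3* list, 10 of 11 bHLH partners and cofactors and 3 of 5 fusion and migration genes were beyond it, as were 6 of 15 sarcomere, 1 of 6 synapse and 1 of 5 coupling genes.

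Of 9 cranial mesoderm factors, 7 were tested and all 7 were beyond counting noise, 5 of them highest in replicate 1. Among all genes tested, 81.5% were beyond counting noise and 33.8% were so and highest in replicate 1. *Tbx1*, a regulator of branchial arch myogenesis, was at 30.1, 17.8 and 27.5 CPM in replicates 1, 2 and 3, low in replicate 2 as *Myf5* was. *Isl1*, a gene of the second heart field that neurons also use, was at 37.0, 11.2 and 5.31 CPM, in the order of *Msc*, and *Ebf2* was at 25.1, 11.9 and 9.34. *Lhx2* ran the other way, at 7.98, 41.9 and 33.7 CPM, and it is also an eye gene. *Pitx1* and *Ebf3* were at 67.2, 57.7 and 67.9 CPM and at 96.7, 84.2 and 76.0 CPM. *Nkx2-5* and *Mesp1* had 3 counts or fewer in every library. The median offset of the 7 tested genes was 0.43 in replicate 1, against 0.0057 over all genes tested.

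Of a list of 9 genes upstream of the myogenic factors, *Pax3*, *Pax7*, *Six2* and *Eya1* among them, 8 were beyond counting noise. The share over all genes tested was 81.5%. *Eya1* and *Six2*, which feed into muscle gene control but are also made by facial mesenchyme, were at 67.6 ± 16.5 and 75.2 ± 41.4 CPM (SD, n = 3). *Pax3*, which directs trunk and limb myogenesis and is a neural crest gene too, was at 3.42, 6.12 and 7.30 CPM. *Pax7*, a marker of muscle stem cells, had 18, 11 and 27 counts, within counting noise (adjusted p = 0.0547).

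The bHLH partners and their inhibitors spanned a wide range of levels per length. *Tcf3*, which encodes E proteins that dimerize with myogenic factors, was at 615 ± 3.28 TPM (SD, n = 3), *Twist1*, a bHLH gene of mesenchyme, at 705 ± 30.1 TPM and *Id3* at 479 ± 73.2 TPM, while *Tcf4*, another E protein gene, was at 11.5 ± 2.47 TPM (27.7 with the length of its longest transcript), *Id4* at 4.75 ± 1.43 TPM and *Mef2b* at 1.08 ± 1.09 TPM, against 2.96 ± 2.49 TPM for *Myf5*. By library, *Tcf3* was at 665, 780 and 985 CPM in replicates 1, 2 and 3, so its small spread holds for TPM and not for CPM. All 12 genes of this list were beyond counting noise, 5 highest in replicate 1 and 6 in replicate 3. The shares over all genes tested were 81.5% beyond it, with 33.8% and 36.4% also highest in replicates 1 and 3. *Tcf12*, also an E protein gene, was at 329, 294 and 151 CPM, and *Mef2c*, a partner of the myogenic factors that is also active in other lineages, at 21.5, 15.9 and 7.57 CPM, both lowest in replicate 3. *Mef2b* had 4, 10 and 49 counts.

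Of 25 further sarcomere genes, 16 were tested, 14 were beyond counting noise and 10 of these were highest in replicate 3, where 81.5% of all genes were beyond counting noise and 36.4% were so and highest in replicate 3. *Tpm1* and *Tpm2*, tropomyosins that non-muscle cells also make, were at 229 ± 37.7 and 63.3 ± 32.0 CPM (SD, n = 3), and the slow troponin *Tnnt1* was at 2.80, 3.09 and 9.08 CPM. *Tnni2*, a fast troponin, had 3, 3 and 34 counts. *Myl4*, the embryonic light chain, had 5, 7 and 18. *Myh7* ran the other way with 27, 5 and 6 counts, highest in replicate 1 as *Actc1* was. The creatine kinase gene *Ckm* had 0, 0 and 1 counts. The median offset in replicate 3 was 0.36, and 0.27 after the median of genes of like length and GC was subtracted, with 11 of 16 genes above it.

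Of the genes of the receptor and synapse, 5 of 7 tested were beyond counting noise, against 81.5% of all genes tested. *Rapsn*, which clusters acetylcholine receptors, was at 0.959, 0.899 and 3.27 CPM. *Chrng*, the embryonic receptor subunit, had 7, 4 and 21 counts and the adult *Chrne* 0, 0 and 1. *Chrnb1* (46, 33 and 55 counts) and *Chrnd* (11, 9 and 18) were within counting noise, and *Musk*, the kinase that agrin activates, had 2, 0 and 0 counts. *Dok7* had 25, 5 and 6 counts. *Agrn* and *Lrp4*, which nerves, epithelia and mesenchyme also make, were at 236 ± 46.0 and 56.0 ± 19.0 CPM (SD, n = 3).

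Of 8 genes of excitation-contraction coupling, 5 were tested and 4 were beyond counting noise, all 4 highest in replicate 3. Over all genes tested, 81.5% were beyond counting noise and 36.4% were so and highest in replicate 3. Without replicate 3, 1 of 5 coupling genes was beyond it, where 48.8% of all genes were. *Stac3* was at 1.79, 2.42 and 4.96 CPM, *Atp2a1*, the fast muscle calcium pump, at 1.27, 1.63 and 2.68, and *Cacnb1* at 7.25, 7.39 and 13.1. *Jph2* was at 8.94, 6.04 and 9.90 CPM. *Ryr1*, the calcium release channel, was at 12.0, 12.7 and 11.6 CPM, within counting noise. *Casq2* and *Trdn* had 0 counts in every library, with upper Poisson limits of 0.0956, 0.104 and 0.0979 CPM in replicates 1, 2 and 3. For fusion and migration, *Mymk* had 0, 1 and 2 counts and *Mymx* 1, 7 and 8, while *Cdh15*, the muscle cadherin, had 103, 86 and 157. *Met* was at 8.58, 3.82 and 2.20 CPM and *Jam3* at 28.1, 31.7 and 35.7, with *Cxcr4* at 6.79, 4.38 and 4.22. *Lbx1*, a gene of migrating limb and tongue muscle precursors, had 0, 1 and 0 counts. Of this list, 4 of 5 tested genes were beyond counting noise, against 81.5% of all genes tested.

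**Figure D4:**
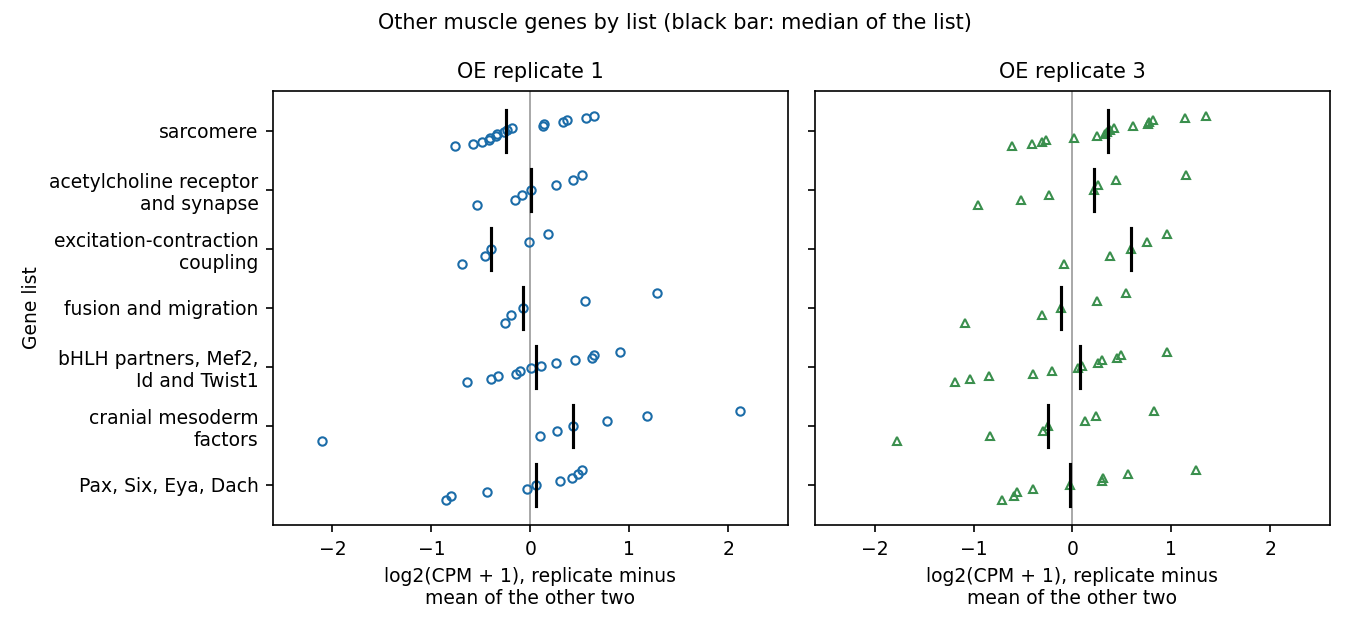
Offset of the tested genes of the 7 further muscle lists in OE replicates 1 and 3, as log2(CPM + 1) in that library minus the mean of the other two (x axis), with 1 point per gene and the list median as a black bar. The sarcomere median is -0.25 in replicate 1 and 0.36 in replicate 3, and that of the cranial mesoderm factors is 0.43 and -0.25.

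Markers of other muscle and of neighbouring tissue moved between the same libraries, and their part in the values above was not tested. Of 9 heart markers, 4 had more than 3 counts in every library, and the summed level of all 9 was 4.15, 5.25 and 10.3 CPM in replicates 1, 2 and 3. The defining *Nppa*, *Nppb* and *Myl2* had at most 4 counts in any library, *Myl7* had 18, 27 and 45 and *Myh6* 25, 8 and 19, and *Tnni3* led the list at 1.97, 2.50 and 7.17 CPM. Of 7 smooth muscle markers, 6 had more than 3 counts in every library, with a sum over all 7 of 44.7, 41.8 and 70.5 CPM that came mostly from *Smtn*. *Acta2* was at 8.99, 1.97 and 5.42 CPM, and *Myocd*, the smooth and cardiac muscle coactivator, had 50, 7 and 14 counts, while *Tagln* had 3 or fewer.
Of 7 somite markers, 5 had more than 3 counts in every library, and all 7 summed to 19.6, 18.4 and 43.5 CPM. *Tcf15* was at 6.89, 14.6 and 37.5 CPM, highest in replicate 3 as *Des* was, while *Tbx18* was at 9.72, 1.77 and 1.43 CPM and *Pax1* had 34, 0 and 8 counts. All 7 mandibular arch markers had more than 3 counts in every library, 6 were beyond counting noise and 3 of those (*Gsc*, *Dlx5* and *Dlx6*) were highest in replicate 3, where 81.5% of all genes were beyond counting noise and 36.4% were so and highest in replicate 3. Without replicate 3, 3 of 7 mandibular markers and 48.8% of all genes were beyond counting noise. The sum of the list, 105, 132 and 144 CPM, came mostly from other genes of the list. *Gsc* was at 1.37, 2.30 and 15.5 CPM and *Dlx5* at 6.63, 6.12 and 13.1 CPM, again highest in replicate 3, while *Hand2* was at 4.66, 7.59 and 7.27 CPM. All 7 endothelial markers had more than 3 counts in every library, with a summed level of 318, 354 and 293 CPM. The genes highest in replicate 1 (*Myf5*, *Msc*, *Tcf21* and *Actc1*) shared that library with all 8 neuron markers, and the eye and forebrain markers were lowest there in 6 of 6 cases.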

How the data were processed

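The authors mapped 150 bp paired-end reads of poly-A-selected RNA to mm10, and the submitters' processing notes name STAR 2.7.3a, HTSeq 0.12.4 and FastQC. The deposited values are raw counts per gene without normalization. The strand setting and annotation release are not given in the sources used here. Rows naming no gene held 14.2% to 16.4% of reads and were left out.

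Of 55401 identifiers, 55141 matched GENCODE M21 (GRCm38), which gave names, coordinates and lengths. CPM used TMM factors from edgeR 4.0.16 (1.06, 1.01 and 0.940), and TPM used union exon lengths. Each gene's counts were tested by chi-square against the scaled library sizes, with Benjamini-Hochberg adjustment at 0.05 over all 17115 genes that averaged 10 counts or more. The spread came from an edgeR model with an intercept only. DESeq2 1.42.0 gave alternative size factors. Scripts were tested on simulated data. Taking 3 counts as a floor, a level up to 0.0777, 0.0843 and 0.0796 CPM could be missed in replicates 1, 2 and 3. Pairs of libraries differed far beyond sampling noise, so none was counted as a copy. R 4.3.3, Python 3.11.15, numpy 2.4.6, pandas 2.3.3, scipy 1.17.1 and matplotlib 3.10.9 were used.

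The members and gene lists were chosen with earlier results of these data known. All members are named, as are, from each muscle list, up to 3 genes highest in CPM and up to 3 with the largest ratio between libraries. Other genes were chosen after their values were seen. Some genes that this rule names are not reported here. Alternatives were other scalings, filters, thresholds, pseudocounts and lengths, and leaving out each replicate. The labels give independent RNA samples without naming embryos. Replicate 1, with no counts from 4 Y-linked genes, holds other embryos than replicates 2 and 3, and whether those came from separate embryos is not stated, so p-values measure only the spread between these samples.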

Additional observations from a re-analysis of the deposited data

How the results depend on the processing

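No paired analysis was possible because the labels put all libraries in 1 group. With 1 replicate left out at a time, the number of members beyond counting noise ran from 4 (without replicate 3) to 7, where 71.2%, 77.7% and 48.8% of all genes were beyond it without replicates 1, 2 and 3. The number past 2-fold ran from 2 (without replicate 1) to 3, where 6.52%, 17.0% and 1.82% of all genes were, and the members' median biological coefficient of variation from 0.361 (without replicate 3) to 0.579. The number above 3 counts in every library ran from 8 to 9. Without scaling beyond the library size, *Myod1* was within counting noise (adjusted p = 0.0632, chi-square test) and its highest library was replicate 2 in place of replicate 3. Its adjusted p over the alternatives ran from 0.00692 to 0.793. With the length of the longest transcript the mean level of *Myod1* was 1.47 TPM in place of 1.94, and that of *Myf5* was 2.22 in place of 2.96. The lengths of both genes (1861 and 2083 bases) are the same either way, so the moves come from the lengths of the other genes in the TPM total. By this length *Msc* was at 2.91 TPM in place of 2.65 and *Tcf21* at 1.71 in place of 1.73. *Msc* then stood above *Myf5* in the order by mean TPM, and *Tcf21* above *Myod1*. Members past 2-fold numbered 5 with a pseudocount of 0.1 CPM (24.6% of all genes) or a limit of 1.5-fold (38.9%), and 4 after medians of genes of like length (8.39%), GC content (9.12%) or both (6.95%) were subtracted, alternatives added once the data had been seen. For *Myf6* and *Chrna1*, differences between libraries were not detectable at this depth.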
